A study of Mus musculus with 4 samples.

Results

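Complement is a cascade of plasma and tissue proteins that marks targets for removal. In its classical pathway, C1q, built from A, B and C chains, recognises a target and switches on the serine proteases C1r and C1s, which cleave C4 and C2 so that a convertase can cleave C3. In the alternative pathway factor B takes the place of C2, and C1 inhibitor, encoded by Serping1, inactivates C1r and C1s. Plasma C3 comes mostly from the liver, but tissues make complement as well: C1q is largely a macrophage product, and fibroblasts and other stromal cells make C3, C4, C1r, C1s and C1 inhibitor.

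The 9 genes described here are C3, C4b, C1qa, C1qb, C1qc, C1ra, C2, Cfb and Serping1. They were taken by gene symbol from a table of 17485 genes, and all 9 symbols were present. They were chosen by their Klf9 KO over WT log2 ratios in these same libraries, so their differences between the groups are given as a description, without a test. Total RNA of heart tissue was sequenced in bulk from mice labelled male and aged 8 weeks, with 2 libraries from Klf9 KO mice and 2 from WT mice. No treatment is given beyond "random food and drink". Klf9 encodes a Krüppel-like zinc finger protein that binds GC-rich DNA, and the study asked how it bears on mitochondrial function in the heart. Strain, targeting design and the number of animals are not given, so a p-value here reflects how far these libraries scatter, and that scatter may be technical.

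The authors' deposited table held ratios between libraries and no levels, and library values were worked back from its 4 pairwise ratios. Their unit is not given and the depth is unknown. A factor common to all values of a gene may be lost, so the level of a gene may be too low. Ratios between genes are therefore read across libraries only, and sums and ranks over genes depend on that factor. Klf9 itself stood at 2.66 and 1.99 in Klf9 KO hearts and at 74.9 and 58.8 in WT hearts. Klf9 KO replicate 2 went against its label of male: the Y-linked gene Ddx3y was at 0.01 there, the smallest step, against 7.82 in Klf9 KO replicate 1 and 14.6 and 17.1 in the WT libraries, and Kdm5d was likewise at 0.01 there against 3.42 to 4.01 in the other 3 libraries. Eif2s3y, also Y-linked, was at 0.73 there and between 23.6 and 41.8 in the other 3. Values without this library are therefore given beside the complement genes and the counts of the gene lists. The groups also differed in Esr1, the estrogen receptor alpha gene (0.09 and 0.03 in Klf9 KO hearts, 3326 and 2726 in WT hearts), in the fetal troponin gene Tnni1 (656 and 994 in Klf9 KO hearts, 0.16 and 0.01 in WT hearts) and in the proliferation gene Mki67 (17.0 and 20.8 in Klf9 KO hearts, 1.03 and 1.16 in WT hearts). By WT mean Esr1 ranked 16 among all 17485 genes, and the source of that very high level was not tested. On a list of 9 tested early-stage genes that holds Tnni1 and Mki67, 8 were higher and 1 was lower in Klf9 KO hearts (limma, adjusted p below 0.05). Of all tested genes 27.7% were higher and 17.0% lower by that rule. Tnni1 and Dlk1 of that list reached the level needed for testing in Klf9 KO hearts alone, so they had to differ. Esr1 and stage differed along with genotype, so their part in the complement values cannot be told apart from it. The part of sex was not tested. The heart muscle markers Myh6 (8725 and 7138 in Klf9 KO hearts, 7101 and 4788 in WT hearts) and Tnnt2 (3821 and 3833 in Klf9 KO hearts, 4143 and 6849 in WT hearts) were present in all 4 libraries.

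Of the 9 complement genes, 8 had lower values in both Klf9 KO libraries than in both WT libraries, and C2 did not. A gene entered the tests when 2 or more libraries reached a value of 1. Of the 12135 such genes, 30.2% had both Klf9 KO values below both WT values and 7.37% were lower by at least 1 on the log2(value + 1) scale; because this contrast chose the 9 genes, nothing is read from their count. Those 8 genes passed the filter on low values, C4b through its WT values alone, and C2 did not. The median log2 difference, Klf9 KO minus WT on the log2(value + 1) scale, was -2.01 over the 8 genes and -1.96 over all 9, beside 0.12 over all tested genes. Scaling the libraries by their median ratio (RLE) moved the median over all tested genes to 0.01. In hearts measured in bulk, fewer cells of the type that makes a transcript and less transcript per cell cannot be told apart.

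**Figure D1:**
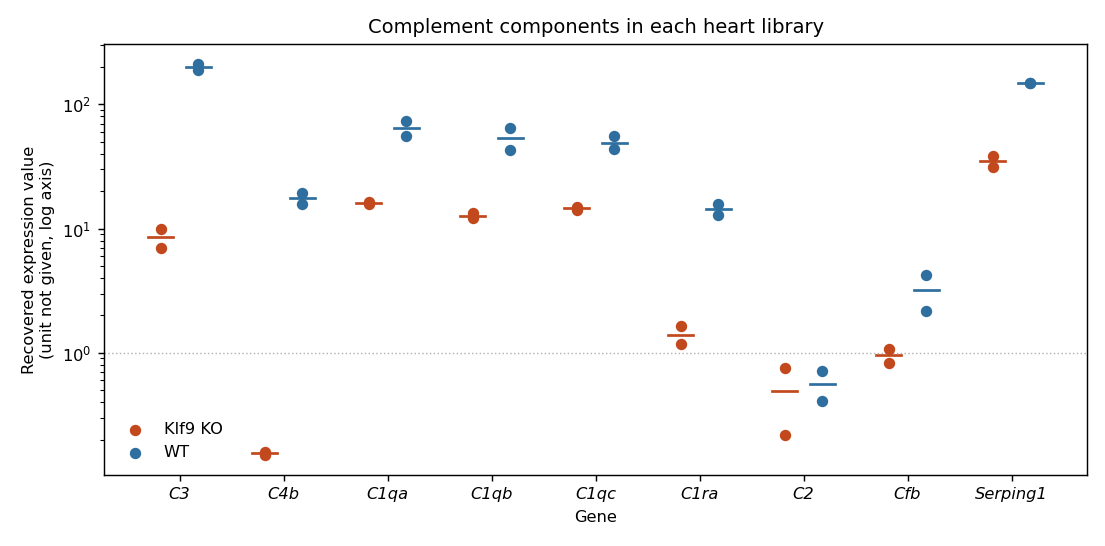
Recovered expression values (log axis, unit not given) of the 9 complement genes in each library, Klf9 KO in orange and WT in blue; points are libraries and bars are group means of 2 libraries. The points of the groups are apart for 8 genes and overlap for C2, and C4b stands at 0.15 and 0.16 in Klf9 KO hearts against 19.1 and 15.8 in WT hearts.

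C3, the component on which all pathways converge, stood at 9.99 and 7.03 in the Klf9 KO libraries and at 213 and 190 in the WT libraries (Entrez 12266, chromosome 17). The Klf9 KO mean was 4.23% of the WT mean, and the log2 difference was -4.42 with a within-group SD of 0.24 (n = 2 per group), or -4.20 without Klf9 KO replicate 2. In the authors' deposited table the 4 pairwise log2 ratios of C3 ran between -4.92 and -4.25. As C3 was chosen by this contrast, nothing is read from how far apart the groups lie.

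C4b, whose product forms the classical and lectin pathway convertase together with C2, was near the bottom of the scale in Klf9 KO hearts. It stood at 0.15 and 0.16 there and at 19.1 and 15.8 in WT hearts (Entrez 12268, chromosome 17). The Klf9 KO mean was thus 0.887% of the WT mean, 113-fold lower. C4b passed the filter on low values through its WT values alone, so its groups had to lie apart. Its log2 difference was -3.99 with a within-group SD of 0.13, and -4.00 without Klf9 KO replicate 2. It depends on the number added before taking logs: it was -6.10 with 0.1 added, and the authors' deposited table gave pairwise log2 ratios between -7.00 and -6.62. Among the 9 genes C4b had the largest difference as a ratio, and C3 on the log2(value + 1) scale. C4a, a near-identical copy beside C4b, had values of 0.08 and 0.08 in Klf9 KO hearts and 0.09 and 0.02 in WT hearts, and how reads were divided between the copies is not given.

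**Figure D2:**
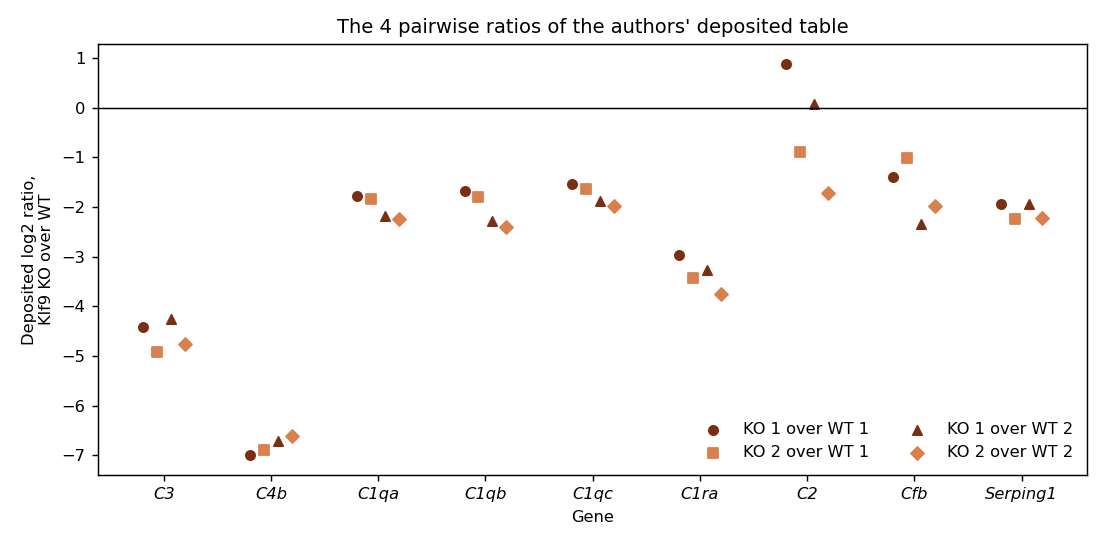
The 4 pairwise log2 ratios, Klf9 KO library over WT library, of each complement gene in the authors' deposited table; dark symbols are Klf9 KO replicate 1 and light symbols Klf9 KO replicate 2. All 4 ratios lie below 0 for 8 genes, between -7.00 and -6.62 for C4b and between -2.40 and -1.53 for the C1q chains, while those of C2 run between -1.71 and 0.89.

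The 3 chains of C1q, whose genes lie side by side on chromosome 4, had similar differences. C1qa (Entrez 12259) stood at 16.3 and 15.7 in Klf9 KO hearts and at 55.5 and 74.0 in WT hearts. C1qb (Entrez 12260) stood at 13.2 and 12.2 in Klf9 KO hearts and at 42.5 and 64.1 in WT hearts. C1qc (Entrez 12262) stood at 15.0 and 14.0 in Klf9 KO hearts and at 43.3 and 55.1 in WT hearts. In each chain the Klf9 KO libraries were close together and below both WT libraries, and WT replicate 2 was above WT replicate 1, by 1.33-fold for C1qa, 1.51-fold for C1qb and 1.27-fold for C1qc.

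The Klf9 KO means of the chains were 24.7%, 23.8% and 29.5% of the WT means for C1qa, C1qb and C1qc. Their log2 differences were -1.94, -1.96 and -1.68 with within-group SDs of 0.21, 0.30 and 0.18. Those SDs include the gap between the WT libraries that the chains share, so ratios between chains are given as well. Without Klf9 KO replicate 2 they were -1.91, -1.90 and -1.64. The ratio of C1qb to C1qa was 0.814 and 0.778 in Klf9 KO hearts and 0.766 and 0.866 in WT hearts, so that the groups overlapped. The ratio of C1qc to C1qa was 0.924 and 0.896 in Klf9 KO hearts and 0.781 and 0.744 in WT hearts, without overlap.

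C1ra, the C1r protease that C1q switches on, stood at 1.63 and 1.17 in Klf9 KO hearts and at 12.7 and 15.8 in WT hearts (Entrez 50909, chromosome 6). The Klf9 KO mean was 9.82% of the WT mean, with a log2 difference of -2.67 and a within-group SD of 0.20, or -2.53 without Klf9 KO replicate 2. Serping1, the inhibitor of C1r and C1s, stood at 38.7 and 31.5 in Klf9 KO hearts and at 149 and 148 in WT hearts (Entrez 12258, chromosome 2). Its Klf9 KO mean was 23.6% of the WT mean, with a log2 difference of -2.06 and a within-group SD of 0.14, or -1.91 without Klf9 KO replicate 2. Protease and inhibitor were thus both lower, and the share of the WT level that was left was smaller for C1ra than for Serping1.

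Cfb, the protease of the alternative pathway convertase, had low values in all libraries, at 0.83 and 1.08 in Klf9 KO hearts and 2.17 and 4.24 in WT hearts (Entrez 14962, chromosome 17). Its log2 difference was -1.06 with a within-group SD of 0.37, the widest among the 9 genes, or -1.16 without Klf9 KO replicate 2 and -0.70 without WT replicate 2. C2, the related protease of the classical pathway, stood at 0.76 and 0.22 in Klf9 KO hearts and at 0.41 and 0.72 in WT hearts (Entrez 12263, chromosome 17). The C2 values of the groups overlapped, and the log2 difference of -0.09 turned to 0.18 without Klf9 KO replicate 2 and to 0.06 without WT replicate 2. All C2 values were below 1, short of the filter, and whether C2 differed between the groups cannot be told from them.

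RefSeq promoter windows, 250 bases before to 50 after the start site in GRCm38.p6, were at hand for C3, C1ra, C1qb and C1qc. They are shown because C3 and C1ra had the lowest shares of the WT level among these 4 genes, and C1qb and C1qc lie side by side. C3 lies at chr17:57228087-57228386 on the minus strand, C1ra at chr6:124512371-124512670 on the plus strand, C1qb at chr4:136886151-136886450 and C1qc at chr4:136892865-136893164 on the minus strand. Capitals mark matches, on either strand, to the motifs named in the next paragraph.
C3: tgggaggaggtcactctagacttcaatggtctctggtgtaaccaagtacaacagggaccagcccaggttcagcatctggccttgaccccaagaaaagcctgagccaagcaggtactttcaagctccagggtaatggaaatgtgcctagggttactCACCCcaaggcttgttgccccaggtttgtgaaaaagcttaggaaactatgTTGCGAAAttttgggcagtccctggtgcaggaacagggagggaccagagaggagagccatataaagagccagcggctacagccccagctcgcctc
C1ra: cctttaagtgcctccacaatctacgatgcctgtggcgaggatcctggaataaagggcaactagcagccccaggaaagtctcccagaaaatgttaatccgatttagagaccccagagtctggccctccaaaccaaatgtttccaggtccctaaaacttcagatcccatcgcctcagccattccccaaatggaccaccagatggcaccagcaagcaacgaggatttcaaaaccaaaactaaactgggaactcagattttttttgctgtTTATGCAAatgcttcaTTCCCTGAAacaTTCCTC
C1qb: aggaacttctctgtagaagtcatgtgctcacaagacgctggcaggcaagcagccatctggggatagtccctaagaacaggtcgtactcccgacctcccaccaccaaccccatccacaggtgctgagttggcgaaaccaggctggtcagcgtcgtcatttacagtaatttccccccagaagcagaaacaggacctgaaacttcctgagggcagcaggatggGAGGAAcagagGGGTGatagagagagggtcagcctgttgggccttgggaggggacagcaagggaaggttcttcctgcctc
C1qc: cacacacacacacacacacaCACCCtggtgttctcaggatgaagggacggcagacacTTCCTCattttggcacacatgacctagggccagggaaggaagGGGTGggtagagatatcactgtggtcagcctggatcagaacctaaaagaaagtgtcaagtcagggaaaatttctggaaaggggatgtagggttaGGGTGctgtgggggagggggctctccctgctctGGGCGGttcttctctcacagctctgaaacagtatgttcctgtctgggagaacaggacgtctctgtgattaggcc

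The motifs searched were CACCC and GGGCGG, letters of boxes that Krüppel-like and SP factors bind, GAAA, any 2 bases and GAAA of interferon response elements, TTCNNNGAA of STAT elements, GAGGAA, the core of PU.1 sites, and TTGCNNAA of C/EBP elements. Positions count from 1 at the start site, with -1 as the base before it. CACCC was found in C3 at position -95, in C1qb at -19 and in C1qc at -230, -151 and -57, and 57.5% of all 32851 promoter windows hold it. GGGCGG was found in C1qc at position -24, against 35.7% of all windows. The C/EBP letters were found in C3 at position -45 and in C1ra at 17, against 10.8% of all windows, and the STAT letters in C1ra at position 33, against 8.30%. GAGGAA was found in C1qb at position -30, in C1qc at -193 and in C1ra at 45, against 28.3% of all windows. The interferon letters, held by 3.44% of all windows, matched none of the 4 windows. A match is a description of the letters and not evidence that a factor binds there.

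Genes next to the complement genes were read in the same libraries. In the stretch of chromosome 17 that holds C4b, Cfb and C2, 8 other genes were tested, of which 3 rose in Klf9 KO hearts and 5 did not pass. The test was limma on log2(value + 1), called at a p below 0.05 after Benjamini-Hochberg adjustment over all tested genes. Dxo, which removes faulty caps from messenger RNA, stood at 12.6 and 14.4 in Klf9 KO hearts and 6.23 and 5.89 in WT hearts (log2 fold change 1.04 ± 0.17 SE, limma adjusted p = 0.00143). Ehmt2, a histone methyltransferase, rose by 0.71 ± 0.20 (limma adjusted p = 0.0178) and Skiv2l, an RNA helicase, by 0.61 ± 0.21 (limma adjusted p = 0.0438). Dxo passed under every setting run, with a limma adjusted p of 0.0242 without Klf9 KO replicate 2. Ehmt2 lost its call without either Klf9 KO library (limma adjusted p = 0.0829 without replicate 1 and 0.244 without replicate 2). Skiv2l lost it there too (0.0975 and 0.333), without WT replicate 2 (0.0639), after RLE scaling (0.0933), after upper quartile scaling (0.0641) and without a filter (0.094). Among all tested genes 27.7% were higher and 17.0% lower by the same rule. Around C1ra, the complement genes C1rl and C1s1 fell, and beside C3, Trip10 fell (28.1 and 25.8 in Klf9 KO hearts, 45.2 and 40.5 in WT hearts; limma adjusted p = 0.0179). Trip10 lost its call without Klf9 KO replicate 1 (limma adjusted p = 0.16) and without Klf9 KO replicate 2 (0.286).

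**Figure D3:**
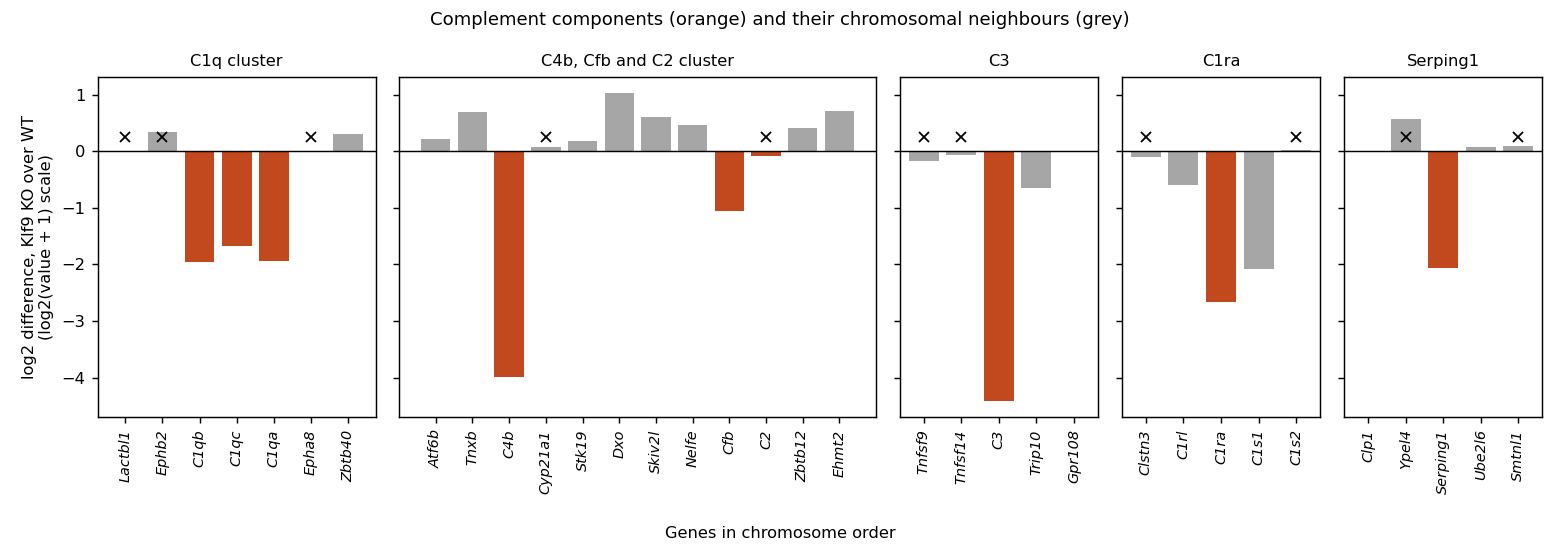
Log2 differences, Klf9 KO over WT on the log2(value + 1) scale, of the complement genes (orange bars) and of the genes next to them (grey bars) in chromosome order; a cross marks a gene with values too low to be tested. C4b at -3.99 and Cfb at -1.06 stand among neighbours with bars above 0, such as Dxo at 1.04.

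The rest of the complement pathway was read from 4 lists of 56 genes, of which 45 were in the table and 26 were tested. In Klf9 KO hearts 13 of the 26 fell, 3 rose and 10 did not pass (limma, adjusted p below 0.05). Of all tested genes 17.0% were lower and 27.7% higher by that rule. The median log2 fold change of the 26 was -0.67 relative to that of all tested genes. Of the 16 called genes, 6 passed the filter on low values through 1 group alone, so that they had to differ: C1rl, Fcna, C7, Itgam and Vsig4 through the WT libraries and Susd4 through the Klf9 KO libraries. They could not be tested once a library of that group was left out, and their counts are a description. Without Klf9 KO replicate 2, 11 were lower and 1 higher, and without Klf9 KO replicate 1 the counts were the same; without WT replicate 1 they were 11 and 6, and without WT replicate 2 they were 9 and 3.

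Of the genes that start the pathways, 4 of 7 tested fell and 3 did not pass; 2 fell when either Klf9 KO library or either WT library was left out. C1s1, the protease that C1r activates, stood at 5.04 and 3.38 in Klf9 KO hearts and at 16.8 and 25.4 in WT hearts (log2 fold change -2.08 ± 0.24 SE, limma adjusted p = 0.000233). The ratio of C1ra to C1s1 was 0.323 and 0.346 in Klf9 KO hearts and 0.758 and 0.621 in WT hearts. C1ra was chosen by this contrast and C1s1 was not, which favours a lower ratio in Klf9 KO hearts. Ficolin A (Fcna), a lectin of phagocytes that starts the lectin pathway, stood at 0.15 and 0.35 in Klf9 KO hearts and at 2.17 and 3.45 in WT hearts (-1.59 ± 0.20, limma adjusted p = 0.00033). Properdin (Cfp), which steadies the alternative pathway convertase, fell by 0.77 (5.19 and 4.88 in Klf9 KO hearts, 9.16 and 9.40 in WT hearts; limma adjusted p = 0.00526), and C1rl by 0.59, and both lost the call without either Klf9 KO library. The lectin pathway protease Masp1 (11.1 and 9.19 in Klf9 KO hearts, 11.9 and 6.15 in WT hearts) and the collectin Colec11 (18.8 and 16.1 in Klf9 KO hearts, 13.2 and 14.0 in WT hearts) did not pass. These calls depended on the WT libraries. The log2 fold change of Masp1 was 0.64 without WT replicate 1 and -0.22 without WT replicate 2. That of Colec11 was 0.29 and 0.37.

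In the terminal pathway 2 genes were tested. C7, a building block of the membrane attack complex, stood at 0.12 and 0.14 in Klf9 KO hearts and at 9.90 and 6.49 in WT hearts (-3.00 ± 0.21, limma adjusted p = 1.81e-05), and had too few libraries above the filter for a test once either WT library was left out. C8g did not pass (1.89 and 1.05 in Klf9 KO hearts, 2.08 and 1.01 in WT hearts). The gene of C5, Hc, was at the smallest step of 0.01 in all 4 libraries.

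Of 8 regulators tested, 3 fell, 2 rose and 3 did not pass. The 2 that rose, Susd4 and Cd46, were not called without either Klf9 KO library or with the filter on the mean value, and 3 fell in each of those settings. Clusterin (Clu), which keeps the terminal complex from inserting into membranes, stood at 74.1 and 68.4 in Klf9 KO hearts and at 810 and 646 in WT hearts (-3.33 ± 0.22, limma adjusted p = 1.59e-05). Cd59a, a membrane protein that blocks the attack complex, stood at 25.9 and 19.9 in Klf9 KO hearts and at 61.3 and 87.9 in WT hearts (-1.65 ± 0.23, limma adjusted p = 0.00064). After RLE scaling 5 regulators fell and 1 rose.

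Susd4, a membrane regulator of the C3 convertase, rose to 1.42 and 1.48 in Klf9 KO hearts, against 0.20 and 0.15 in WT hearts (1.06 ± 0.14, limma adjusted p = 0.000476), and fell below the filter when either Klf9 KO library was left out. Cd46, a membrane cofactor for the breakdown of C3b, was close to the threshold (2.09 and 1.83 in Klf9 KO hearts, 1.23 and 1.14 in WT hearts; limma adjusted p = 0.0481) and lost the call under 9 of 11 other settings, among them RLE scaling. Cr1l, the Crry protein that guards mouse cells against C3 deposition (25.7 and 26.8 in Klf9 KO hearts, 32.2 and 42.7 in WT hearts), the decay accelerator Cd55 (4.25 and 3.67 in Klf9 KO hearts, 4.90 and 6.89 in WT hearts) and vitronectin (Vtn) did not pass.

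Among receptors 5 of 9 tested genes fell, 1 rose and 3 did not pass. Without Klf9 KO replicate 2 the counts were the same, and without WT replicate 1, 4 fell and 3 rose. The anaphylatoxin receptors C5ar1 (1.02 and 0.73 in Klf9 KO hearts, 2.88 and 5.20 in WT hearts; -1.39 ± 0.23, limma adjusted p = 0.00154) and C3ar1 (0.98 and 1.10 in Klf9 KO hearts, 2.26 and 3.63 in WT hearts; limma adjusted p = 0.00534) fell. So did both chains of complement receptor 3, Itgam (0.93 and 0.78 in Klf9 KO hearts, 3.65 and 4.81 in WT hearts) and Itgb2 (1.43 and 1.06 in Klf9 KO hearts, 3.45 and 4.75 in WT hearts). Vsig4, a C3b receptor of tissue macrophages, was at the smallest step of 0.01 in both Klf9 KO libraries and at 2.0 and 4.2 in the WT libraries. Cd93, an endothelial membrane protein once described as a C1q receptor, rose to 109 and 116 in Klf9 KO hearts, against 40.3 and 25.3 in WT hearts (1.79 ± 0.24, limma adjusted p = 0.000495).

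Proteins that share the globular C1q domain but are not complement components formed another list. Of its 12 tested genes 7 rose and 1 fell in Klf9 KO hearts, and 4 were not called. The shares were 58.3% higher and 8.33% lower, beside 27.7% and 17.0% of all tested genes. Their median log2 fold change lay 0.51 above that of all tested genes. C1qtnf6 stood at 87.0 and 59.1 in Klf9 KO hearts and at 7.30 and 8.08 in WT hearts (3.07 ± 0.22, limma adjusted p = 2.01e-05), and the matrix glycoprotein Emilin2 at 68.7 and 76.9 in Klf9 KO hearts and 15.0 and 10.6 in WT hearts. Mmrn1 was the gene that fell (0.67 and 0.62 in Klf9 KO hearts, 1.37 and 2.45 in WT hearts). Mmrn1 passed the filter through its WT values alone. Without either Klf9 KO library in turn 5 rose and 1 fell, and after RLE scaling 6 rose and 3 fell.

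**Figure D4:**
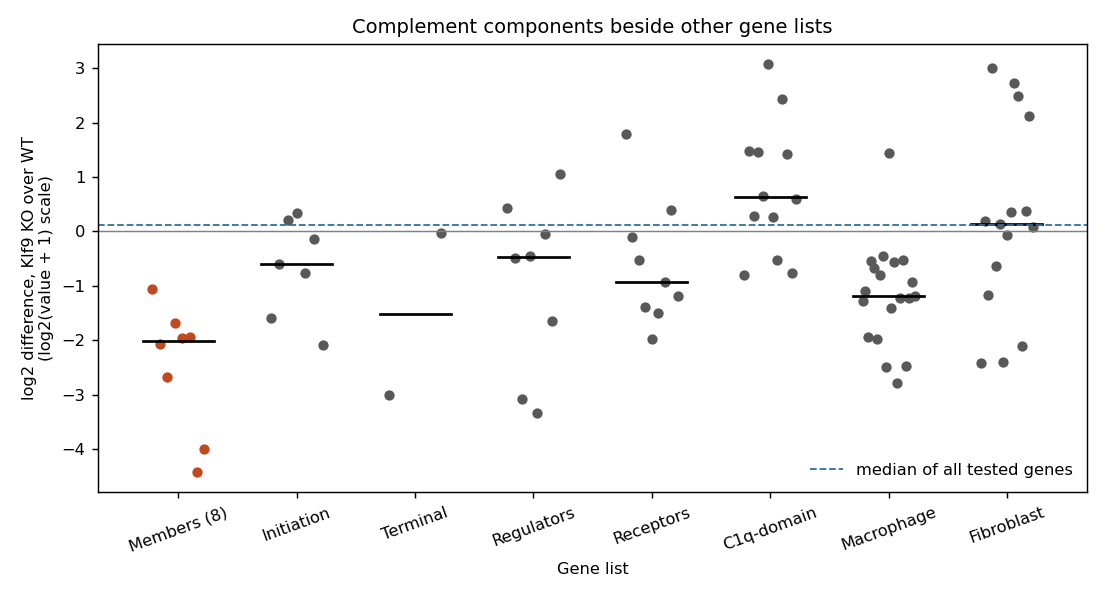
Log2 differences, Klf9 KO over WT on the log2(value + 1) scale, of the 8 complement genes past the filter (orange) and of the tested genes of other lists (grey); black bars are list medians and the dashed line is the median of all tested genes, 0.12. The 8 complement genes, which were chosen with these values known, lie between -4.42 and -1.06, and each other list drawn has points on both sides of the dashed line, except that both terminal genes lie below it.

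Markers of cells known to make complement were read beside these values. Of 22 macrophage markers other than C1q, 19 were tested, 16 fell, 1 rose and 2 did not pass, and 3 of the called markers passed the filter through their WT values alone. The shares were 84.2% lower and 5.26% higher, beside 17.0% and 27.7% of all tested genes. Without Klf9 KO replicate 2, 13 fell and 1 rose, and without Klf9 KO replicate 1, 11 fell and 1 rose. The summed values of the list were 89.0 and 90.4 in Klf9 KO hearts and 239 and 392 in WT hearts. Lyz2 alone gave 14.8 and 15.5 of the sums in Klf9 KO hearts and 71.9 and 169 in WT hearts, and without it the sums were 74.2 and 74.9 in Klf9 KO hearts and 167 and 223 in WT hearts. A sum weighs each gene by its recovered level, which may be too low by a factor common to its 4 values. Among the defining markers, Adgre1 stood at 1.99 and 1.72 in Klf9 KO hearts and 2.70 and 3.76 in WT hearts, Csf1r at 3.54 and 2.78 in Klf9 KO hearts and 4.76 and 4.57 in WT hearts, and Cd68 at 5.45 and 7.91 in Klf9 KO hearts and 16.0 and 16.3 in WT hearts. None of these 3 was near 0. Csf1r did not pass (log2 fold change -0.45, limma adjusted p = 0.0647). Adgre1 lost its call without either Klf9 KO library, with a log2 fold change of -0.63 without replicate 1 and -0.49 without replicate 2. The log2 fold changes of 14 macrophage markers lay above those of all 3 C1q chains, 1 lay among them and 4 lay below, namely Lyz2 (-2.79), Cd163 (-2.49), F13a1 (-2.48) and Folr2 (-1.98). Cx3cr1, a chemokine receptor of macrophages, rose (4.30 and 4.03 in Klf9 KO hearts, 0.65 and 1.17 in WT hearts). The part of macrophage number in the C1q values was not tested.

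Of 15 fibroblast markers tested, 4 rose, 4 fell and 7 were not called. The shares were 26.7% higher and 26.7% lower, beside 27.7% and 17.0% of all tested genes, so the share that rose was near that of all genes. Their summed values were 1280 and 1340 in Klf9 KO hearts and 1090 and 1120 in WT hearts. Collagens made up much of the Klf9 KO sums: Col1a1 stood at 342 and 422 there and at 67.1 and 32.0 in WT hearts. Col1a2 stood at 270 and 287 against 63.9 and 37.6, and Col3a1 at 243 and 230 against 40.4 and 30.25. Of the 4 that fell, Gsn stood at 69.17 and 72.15 in Klf9 KO hearts and 418.57 and 340 in WT hearts. The sums thus depend on a few genes and do not give the direction of the list. Without Klf9 KO replicate 2, 4 rose and 3 fell, and without WT replicate 1, 7 rose and 5 fell. The defining markers differed among themselves: Pdgfra did not pass (11.4 and 9.67 in Klf9 KO hearts, 9.21 and 6.85 in WT hearts), Tcf21 rose (15.4 and 16.2 in Klf9 KO hearts, 2.38 and 3.40 in WT hearts) and Dcn fell (145 and 131 in Klf9 KO hearts, 221 and 429 in WT hearts). Dcn lost its call without Klf9 KO replicate 2 (limma adjusted p = 0.0708) and without a filter (0.0535), and its log2 fold change of -1.16 was -1.63 without WT replicate 1 and -0.68 without WT replicate 2. Alb and Apoa1, the defining hepatocyte markers, lay between 0.01 and 0.14 in all libraries, at or near the smallest step. Ahsg (0.61 and 0.17 in Klf9 KO hearts, 5.63 and 7.40 in WT hearts) and Hp (0.05 and 0.15 in Klf9 KO hearts, 2.13 and 3.04 in WT hearts), plasma protein genes on the same list, fell, also without Klf9 KO replicate 2. Both passed the filter through their WT values alone.

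Of 26 tested genes of signals and factors known to bear on complement transcription, 12 fell, 2 rose and 12 did not pass. Esr1 is 1 of the 12 that fell. Il6ra and Esr1 passed the filter through their WT values alone, so they had to differ and their fall is a description. By the same rule 17.0% of all tested genes were lower and 27.7% higher. Cebpb, a C/EBP factor of the acute-phase response, stood at 4.98 and 3.85 in Klf9 KO hearts and 22.8 and 17.0 in WT hearts (-1.94 ± 0.20, limma adjusted p = 0.000143), and its relative Cebpd at 2.93 and 2.09 in Klf9 KO hearts and 12.2 and 7.88 in WT hearts (-1.64 ± 0.23, limma adjusted p = 0.000625). The receptor chains Osmr for oncostatin M (-1.48 ± 0.17) and Ifngr1 for interferon gamma (-1.14 ± 0.20) fell, as did Irf1 (-0.87 ± 0.16), a factor that interferon induces. Irf8 and Ifnar1 rose, by 1.29 ± 0.18 and 0.78 ± 0.18. Stat3, which relays interleukin 6 signals, did not pass (41.7 and 39.9 in Klf9 KO hearts, 60.9 and 40.5 in WT hearts). Without either Klf9 KO library in turn 7 fell and 1 rose.

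Among the 5 tested genes whose profile over the 4 libraries was most like that of C3, by Euclidean distance between centred log2(value + 1) profiles, were Klf9 itself at a distance of 0.188, Xdh at 0.357, Cpxm2 at 0.419 and Ces1d at 0.425. Those nearest to the mean of the C1q chains were Msrb1, H2-K1, Tecrl, Acss1 and Tfb2m, at distances of 0.0867 to 0.108. Each distance rests on 4 libraries in 2 groups, so it mostly reflects the size of the group difference. That difference was -4.42 for C3 and -4.35 for Klf9. A link between these genes was not tested.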

How the data were processed

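Total RNA of hearts was sequenced in 2 Klf9 KO and 2 WT libraries, grouped by their titles. Aligner, counting, genome build and depth are not given in the sources used here. In 1 table the authors deposited log2 ratios for the 4 pairs of libraries and for the groups. Per the file headers each compares WT with KO, and they were read as Klf9 KO over WT because all 4 are negative for Klf9. The p-values that the authors deposited, from a Poisson test of each pair and from DEGseq per the file headers, were not used.

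The 4 ratios were present for 16152 genes and added up across pairs to within 9.9e-14. Continued fractions gave the smallest whole numbers behind the ratios of all 17485 genes. These were taken as multiples of 0.01, which is an assumption, and where a ratio is missing both libraries were set to 0.01. A factor common to all 4 values of a gene is lost, so a level may be too low while its ratios are not affected.

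limma 3.58.1 in R 4.3.3 (trend, robust) was fitted with a group term to log2(value + 1) of the 12135 genes that reached 1 in 2 or more libraries, and p-values were adjusted by Benjamini-Hochberg. The script was tested on data with known answers. Fold changes on this scale understate those of low genes. Alternatives were 2 scalings, 2 filters, a pseudocount of 0.1, non-robust moderation, leaving out each library and a replicate block.

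The complement genes, lists and motifs were chosen with earlier results of these data known. Genes were named from a list by lowest p in each direction (up to 5) and by highest mean (2). Of the genes this rule names, 2 are not reported here. Defining markers, genes with very low values and the genes lying between C4b and Cfb were added after their values were seen. Python 3.11.15 with numpy 2.4.6 was used for recovery, pandas 2.3.3 for tables and matplotlib 3.10.9 for drawing.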

Additional observations from a re-analysis of the deposited data

How the results depend on the processing

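For the 9 complement genes the median log2 difference of -1.96 lay between -2.14 and -1.74 when a library was left out, and scaling, filter, pseudocount and moderation left it between -2.07 and -1.96. The difference of C2 changed sign, to 0.06 without WT replicate 2 and to 0.18 without Klf9 KO replicate 2. Of the 16 other complement genes called, 15 kept their call after RLE scaling and after upper quartile scaling, and 12 of the 15 still tested kept it without either Klf9 KO library. When 1 library was left out, so that the lone library of a group is assumed to vary like the rest, the counts of other complement genes lay between 1 and 6 higher and between 9 and 11 lower, and those of all genes between 1274 and 4340 higher and between 1033 and 2982 lower. With a filter on the mean value, 1 other complement gene was higher. Without a filter 7 of the signal and factor genes fell, against 12.

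Over all genes 3367 were higher and 2061 lower, and after RLE scaling 2771 and 2508. The share of calls that were higher was 62.0%, and 52.5% after RLE scaling. Among the genes recomputed singly under each setting, 6 that did not pass, besides C2, changed sign when a library was left out. Without Klf9 KO replicate 2 the log2 fold change was 0.10 for Kdm5d, 0.02 for Colec12, 0.22 for C8g and 0.22 for Vtn. Without WT replicate 1 it was 0.28 for C8g, 0.06 for Vtn and 0.01 for Stat3, and without WT replicate 2 it was -0.22 for Masp1. The ranges without 1 library were -0.35 to 0.18 for C2, -2.21 to 0.10 for Kdm5d, -0.22 to 0.64 for Masp1, -0.31 to 0.02 for Colec12, -0.34 to 0.28 for C8g, -0.33 to 0.22 for Vtn and -0.57 to 0.01 for Stat3. The cause was not tested. The replicate numbers of the titles did not pair the libraries: the deviations of same-numbered libraries from their group means had a correlation of -0.0355 over genes, and with the replicate block the counts were 3514 higher and 2275 lower over all genes and 2 higher and 13 lower among the other complement genes, with a median of -1.96 over the 9 genes. Levels below about 1 are limited by the unknown depth.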
